A study of Mus musculus with 40 samples.

Results

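The genes described here are 9 markers of granulosa cells, the somatic cells that surround and nourish the oocyte in the ovarian follicle. They were chosen by name, and all 9 are present among the 18024 genes of the deposited expression table. They are the hormone genes Amh, Inha, Inhba and Inhbb, the activin antagonist gene Fst, the receptor gene Fshr, the enzyme gene Cyp19a1, and the transcription factor genes Foxl2 and Nr5a2. The study, of acute p53 activation, sequenced RNA of 5 tissues of C57BL/6j mice aged 60 days, 24 hours after induction. The Tg mice are the comparison group. FMTg mice have the genotype Mdm2FM/- Cag-CreERTg and Tg mice Mdm2+/- Cag-CreERTg; Mdm2 encodes the ubiquitin ligase that restrains p53. Each tissue gave 5 FMTg and 3 Tg libraries, and the 8 ovary libraries, from 5 FMTg and 3 Tg mice, come first below. Mice of both genotypes carry the minus allele of Mdm2 and the Cag-CreER transgene, whose promoter is active in most cell types, so an effect of either is in both groups. The labels explain neither the FM allele nor the inducing dose, and give no stage of the estrous cycle.

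Granulosa cells multiply in small growing follicles under oocyte signals and local ligands of the TGF-beta family, and later depend on follicle-stimulating hormone (FSH) from the pituitary. They make AMH in small follicles, inhibins and activins from shared subunits, and, in large antral follicles, estrogen from androgens supplied by theca cells. Ovulation and luteinisation change this programme, so the level of these transcripts in a whole ovary depends on which follicles it holds.

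Promoter windows are shown for Inhba, which had the largest difference between genotypes among the 9 genes, and for Cyp19a1 and Nr5a2, whose windows hold matches to the motifs searched. Each runs from 250 bases before to 50 bases after an annotated start in RefSeq for GRCm38.p6, on the strand of the gene. The positions are chr13:16011601-16011900 (+ strand) for Inhba, chr9:54268115-54268414 (- strand) for the farthest upstream of the 3 starts of Cyp19a1, and chr1:136960399-136960698 (- strand) for the farther upstream of the pair of Nr5a2 starts. Capitals mark motif matches.
Inhba: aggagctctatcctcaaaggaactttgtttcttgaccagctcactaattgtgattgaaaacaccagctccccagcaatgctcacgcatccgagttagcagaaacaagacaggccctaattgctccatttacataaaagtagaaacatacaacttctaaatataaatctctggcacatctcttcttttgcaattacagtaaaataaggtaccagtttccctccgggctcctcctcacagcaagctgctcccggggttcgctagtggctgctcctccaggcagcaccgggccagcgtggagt
Cyp19a1: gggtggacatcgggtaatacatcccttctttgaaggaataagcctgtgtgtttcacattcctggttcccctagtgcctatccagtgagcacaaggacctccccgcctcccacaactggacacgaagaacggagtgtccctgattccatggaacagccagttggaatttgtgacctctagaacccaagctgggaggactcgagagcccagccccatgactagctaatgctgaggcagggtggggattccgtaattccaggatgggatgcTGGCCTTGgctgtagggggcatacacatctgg
Nr5a2: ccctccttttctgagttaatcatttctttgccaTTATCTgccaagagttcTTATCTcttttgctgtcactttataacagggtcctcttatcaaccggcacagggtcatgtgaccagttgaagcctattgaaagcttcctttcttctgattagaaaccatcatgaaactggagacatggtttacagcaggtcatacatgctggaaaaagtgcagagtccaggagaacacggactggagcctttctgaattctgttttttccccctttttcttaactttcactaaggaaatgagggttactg
Both strands were searched for CAAGGNCA (bound by NR5A factors such as the product of Nr5a2), AGATAA (bound by factors of the GATA family), GTAAACA (forkhead factors such as the product of Foxl2) and TGACGTCA (the cyclic AMP response element). The window of Cyp19a1 has 1 match to CAAGGNCA on the opposite strand, 18 bases after the start, and that of Nr5a2 has 2 matches to AGATAA on the opposite strand, beginning 217 and 200 bases before it. No letters of these motifs overlap another match. The windows matched cover 7 of the 9 genes, with 10 starts in all, and the other 7 single or further windows have 0 matches to any of the 4 motifs, as has that of Inhba. Among 32851 promoter windows of the same length, 6.71% hold CAAGGNCA, 11.2% AGATAA, 3.65% GTAAACA and 1.79% TGACGTCA. A match is a run of letters and not evidence of binding.

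The 40 libraries held 7.16 to 29.0 M reads, and the ovary libraries 8.97 to 23.0 M. They came from 13 mice, and the 3 Tg mice each gave all 5 tissues. Mdm2 served as the check of genotype, although it is itself a p53 target and the labels do not say what the FM allele removes: ovaries had 1213 to 2222 normalised reads in FMTg and 799 to 977 in Tg (log2 difference 0.77 ± 0.23, limma adjusted p = 0.515). Cdkn1a, the cell cycle inhibitor p21 and a p53 target, had 500.2 to 1609.7 normalised reads in FMTg ovaries and 342 to 1055 in Tg ovaries. Normalised reads are read numbers divided by the size factor of the library. Digestive enzyme genes of pancreatic acinar cells made up 25.1% of the reads of ovary Tg replicate 1, 5.35% of FMTg replicate 3 and 2.30% of FMTg replicate 2, against 0.00120% to 0.477% of the other 5. The labels give no sex. The summed reads of 4 Y-linked genes were 1583 to 4358 normalised reads in 9 libraries, which are FMTg replicates 4 and 5 of the pancreas, kidney, heart and small intestine and FMTg replicate 1 of the pancreas. They were at most 62.1 in the other 31, and at most 3.58 in the ovary. In each tissue FMTg replicates 4 and 5 had reads for the fewest genes, in the ovary 16452 and 15899 against 16961 to 17330 in the rest. The labels do not say why.

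All 9 genes had a higher mean log2 value in FMTg than in Tg ovaries, although Amh, Inhbb and Foxl2 were slightly lower in a model of all 40 libraries, and none passed the adjustment over all genes tested. With limma's moderated test over 16486 genes, 0 of the 9 were called at an adjusted p below 0.05, where 0% of all genes were called. At an unadjusted p below 0.05 there was 1 member, Inhba, among 1049 genes. Voom on the recovered reads also called 0 members and 0 genes, with 1 member and 931 genes at the unadjusted level. Without the 3 ovaries that held over 1% acinar reads, 0 members were called, with 1124 genes at the unadjusted level. The median change over the 9 genes was 0.41 on the log2 scale, and over all genes tested it was -0.02. In bulk tissue, a lower level can mean fewer cells of a type or less RNA per cell, which cannot be told apart.

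Inhba (ENSMUSG00000041324.14, chromosome 13, 16011851 to 16031621 on GRCm38) encodes the beta A subunit, which forms activin A as a pair and inhibin A with the alpha subunit. It had 2441, 499, 556, 1491 and 1741 normalised reads in the FMTg ovaries, replicates 1 to 5, against 162, 930.2 and 225 in the Tg ovaries, replicates 1 to 3. FMTg replicates 1, 4 and 5 lay above every Tg ovary, while FMTg replicates 2 and 3 lay below Tg replicate 2, so the groups overlap. The difference of mean log2 values was 1.77 ± 0.68 (limma SE, n = 5 FMTg and 3 Tg), with a 95% interval of 0.23 to 3.30, an unadjusted p of 0.0283 and an adjusted p of 0.705. It ran from 1.28 without Tg replicate 1 to 2.51 without Tg replicate 2, and was 1.10 ± 0.70 with library weights. Without FMTg replicates 4 and 5 it was 1.42 ± 0.85. The exact permutation p of Inhba was 0.0893, where 56 divisions of the libraries allow no p under 0.0179.

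Inha (ENSMUSG00000032968.4, chromosome 1, 75507077 to 75510366) encodes the alpha subunit shared by the inhibins, which lower FSH release from the pituitary. It had 5148, 2301, 1099, 3207 and 4070.2 normalised reads in FMTg ovaries, against 884, 3119 and 1575 in Tg ovaries. The lowest values of both groups, FMTg replicate 3 and Tg replicate 1, lay close together, and Tg replicate 2 lay inside the FMTg range. The difference was 0.77 ± 0.53 on the log2 scale (95% interval -0.43 to 1.97, adjusted p = 0.848). Without Tg replicate 1 it was 0.33, and without Tg replicate 2 it was 1.24.

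Inhbb (ENSMUSG00000037035.5, chromosome 1, 119415465 to 119422248) encodes the beta B subunit of activin B and inhibin B. Its normalised reads were 5084, 2933.3, 2385, 3129 and 3596 in FMTg ovaries and 2107, 3741 and 3445 in Tg ovaries. Apart from the high FMTg replicate 1 and the low Tg replicate 1, the 6 other ovaries lay within 2385 to 3741. The difference was 0.14 ± 0.27 (95% interval -0.47 to 0.75, adjusted p = 0.923), and it was -0.11 without Tg replicate 1 and -0.01 without FMTg replicate 1.

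Fst (ENSMUSG00000021765.9, chromosome 13, 114452290 to 114458951) encodes follistatin, a secreted protein that binds and neutralises activins. It had 1264, 789, 482, 715 and 1362 normalised reads in FMTg ovaries, against 227, 829.4 and 494 in Tg ovaries. FMTg replicates 1 and 5 exceeded all Tg ovaries and Tg replicate 1 lay below all FMTg ovaries, with the rest mixed. The difference was 0.91 ± 0.45 (95% interval -0.10 to 1.92, adjusted p = 0.809), and 0.42 without Tg replicate 1. An antisense transcript, Gm47040, overlaps 115 exonic bases of Fst, and the strand setting of the counting is not stated, so reads of both could be counted together.

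Amh (ENSMUSG00000035262.5, chromosome 10, 80805243 to 80807648) encodes anti-Mullerian hormone, made by granulosa cells of small growing follicles. Its normalised reads were 1656, 552, 242, 352 and 739 in FMTg ovaries and 255, 786 and 649.9 in Tg ovaries. FMTg replicate 1 was the highest by far and FMTg replicate 3 the lowest, and Tg replicates 2 and 3 lay above 4 and 3 of the 5 FMTg ovaries. The difference was 0.16 ± 0.60 (95% interval -1.19 to 1.51, adjusted p = 0.963). It was -0.33 without Tg replicate 1 and -0.23 without FMTg replicate 1. The splicing factor gene Sf3a2 lies 319 bases from Amh on the same strand.

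Fshr (ENSMUSG00000032937.4, chromosome 17, 88984952 to 89200675) encodes the receptor through which FSH acts on granulosa cells. It was low, with 127, 55.96, 23.6, 41.3 and 41.8 normalised reads in FMTg ovaries and 18.8, 92.0 and 25.1 in Tg ovaries. FMTg replicate 1 and Tg replicate 2 stood above the other 6, and the groups overlap. The difference was 0.41 ± 0.58 (95% interval -0.90 to 1.72, adjusted p = 0.896), from 0.02 without Tg replicate 1 to 1.02 without Tg replicate 2.

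Cyp19a1 (ENSMUSG00000032274.9, chromosome 9, 54165937 to 54268110) encodes aromatase, which turns androgens into estrogens in large follicles. It had 166, 36.2, 24.4, 30.3 and 28.7 normalised reads in FMTg ovaries, against 6.28, 46.4 and 46.0 in Tg ovaries. FMTg replicate 1 stood far above and Tg replicate 1, with 5 reads in all, far below the others, and Tg replicates 2 and 3 lay above 4 of the 5 FMTg ovaries. The difference was 0.62 ± 0.70 (95% interval -0.96 to 2.20, adjusted p = 0.875), and -0.10 without Tg replicate 1. The FMTg median, 30.3, lay below the Tg median, 46.0, although the FMTg mean log2 value was the higher.

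Foxl2 (ENSMUSG00000050397.4, chromosome 9, 98955288 to 98958543) encodes the forkhead factor that maintains granulosa cell identity. Its normalised reads were 298, 321, 133, 265 and 281 in FMTg ovaries and 187, 307 and 228 in Tg ovaries. FMTg replicate 3 was the lowest and the other 7 lay within 187 to 321. The difference was 0.08 ± 0.30 (95% interval -0.61 to 0.76, adjusted p = 0.963), and -0.09 without Tg replicate 1. Foxl2os, on the opposite strand, overlaps 12 exonic bases of Foxl2.

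Nr5a2 (ENSMUSG00000026398.14, chromosome 1, 136842571 to 136960448) encodes LRH-1, a nuclear receptor needed for ovulation, which is also active in exocrine pancreas and intestine. It had 3204, 1573, 1874, 1304 and 2247 normalised reads in FMTg ovaries, against 1374, 2555 and 1443 in Tg ovaries. FMTg replicate 1 was the highest and FMTg replicate 4 the lowest, with all Tg ovaries between them. The difference was 0.18 ± 0.31 (95% interval -0.52 to 0.88, adjusted p = 0.915), and -0.0025 without FMTg replicate 1. Without the 3 ovaries of over 1% acinar reads it was 0.14 ± 0.41. Ovary Tg replicate 1 held 25.1% acinar reads, and Tg pancreas averaged 2451 normalised reads of Nr5a2. The part of pancreatic tissue in the ovary reads of Nr5a2 was not tested.

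**Figure D1:**
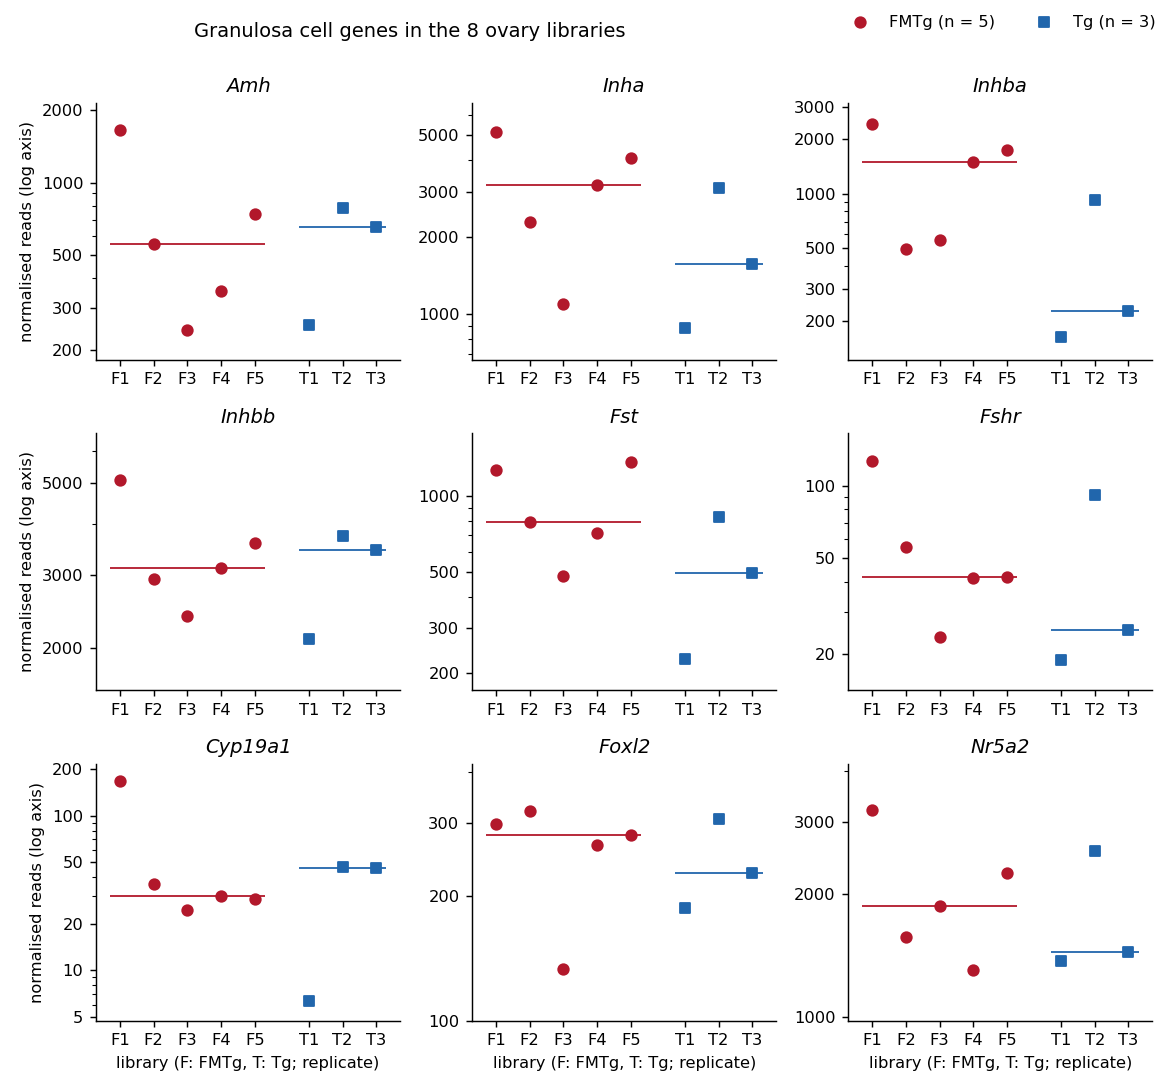
Normalised reads of each gene in the 8 ovary libraries, on a log axis. Circles are the 5 FMTg libraries, squares the 3 Tg libraries, and lines the group medians; FMTg replicate 1 is the highest library for 7 of 9 genes, and Tg replicate 1 the lowest for 6.

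The same libraries were high or low for most of the genes, as the plot by ovary library shows. FMTg replicate 1 was the highest of 8 for 7 genes, and Tg replicate 1 was the lowest for 6 and among the lowest 2 for all 9. FMTg replicate 3 was among the lowest 2 for 7 genes and Tg replicate 2 among the highest 2 for 6. Summed over the 9 genes, FMTg ovaries had 19389, 9059, 6819, 10534 and 14107 normalised reads, against 5222, 12406 and 8130 in Tg ovaries. No gene separated the groups without overlap, while 5.8% of the 16486 genes tested (957) did. The largest and smallest exact permutation p of a single member were 0.875 and 0.0893.

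The spread differed between members. The highest ovary library exceeded the lowest 26.5-fold for Cyp19a1, 15.1-fold for Inhba and 6.84-fold for Amh, but 2.46-fold for Nr5a2 and 2.41-fold each for Inhbb and Foxl2. The within-group SD of the log2 values was 1.13 for Inhba and 1.11 for Cyp19a1, above that of 93.3% and 93.0% of genes tested. It was 0.42 for Inhbb, above 55.1% of genes, and the median over all genes was 0.38. The other 6 members lay between these, above 59.6% to 91.1% of genes.

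**Figure D2:**
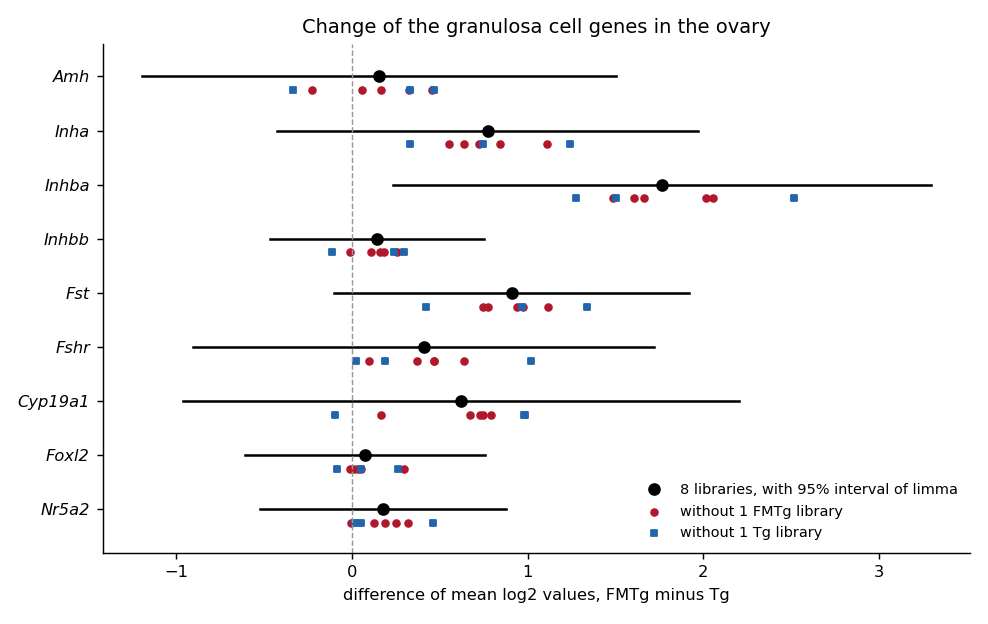
Difference of mean log2 values, FMTg minus Tg, in the ovary. Black points are all 8 libraries with the 95% interval of limma, and small symbols below each are the values with 1 FMTg library (circles) or 1 Tg library (squares) left out; the interval of Inhba, 0.23 to 3.30, is the one that does not reach 0, and its adjusted p was 0.705.

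Per kilobase of exon, Inha had the highest level, 2145.8 ± 1059.5 normalised reads per kb in FMTg and 1261 ± 776 in Tg ovaries (SD, n = 5 and 3). Inhbb followed with 805 ± 241 in FMTg and 728 ± 205 in Tg ovaries. Amh had 424 ± 337 and Nr5a2 346 ± 125 per kb in FMTg ovaries, against 338 ± 165 and 304 ± 112 per kb in Tg ovaries. Inhba had 211 ± 129, Fst 201.0 ± 81.9 and Foxl2 79.7 ± 22.62 per kb in FMTg ovaries, against 68.7 ± 66.7, 113 ± 65.7 and 73.9 ± 18.8 per kb in Tg ovaries. At the low end, Fshr had 24.6 ± 17.1 and Cyp19a1 12.6 ± 13.5 per kb in FMTg ovaries, against 19.2 ± 17.2 and 7.27 ± 5.10 per kb in Tg ovaries. Amh and Nr5a2 lay closer together than either SD in both genotypes, as did Inhba and Fst in FMTg ovaries and Inhba and Foxl2 in Tg ovaries. Foxl2 lay above Fshr by more than either SD in both genotypes, and Inha lay above Inhbb by more than either SD in FMTg ovaries.

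The members were also compared by 4 ratios within a library, on reads per kilobase with 1 normalised read added. Inhba over Inhbb was 0.320, 0.113, 0.155, 0.317 and 0.322 in FMTg ovaries, against 0.0515, 0.166 and 0.0437 in Tg ovaries. Inhbb was the more abundant beta subunit in all 8 ovaries, and the ratio of Tg replicate 2 lay within the FMTg range. The difference was 1.64 on the log2 scale, with an exact permutation p of 0.0714 (two-sided) and 0.214 after Benjamini-Hochberg adjustment over the 4 ratios.

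Both beta subunits together over the alpha subunit Inha gave ratios of 0.452, 0.492, 0.868, 0.446 and 0.405 in FMTg ovaries and 0.868, 0.485 and 0.791 in Tg ovaries. The log2 difference was -0.44 (exact permutation p = 0.304, adjusted 0.304). FMTg replicate 3 and Tg replicate 1, which held the most acinar reads, both had a ratio of 0.868; the part of those reads in it was not tested. Fst over both beta subunits was 0.175, 0.224, 0.162, 0.161 and 0.266 in FMTg ovaries and 0.0955, 0.177 and 0.128 in Tg ovaries, a log2 difference of 0.58 (exact permutation p = 0.107, adjusted 0.214). Cyp19a1 over Amh, an enzyme of large follicles over a hormone of small ones, was 0.0372, 0.0248, 0.0385, 0.0328 and 0.0148 in FMTg ovaries and 0.0105, 0.0222 and 0.0267 in Tg ovaries. Its log2 difference was 0.61 (exact permutation p = 0.286, adjusted 0.304), and 0.47 with 5 normalised reads added. The groups overlapped for all 4 ratios.

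**Figure D3:**
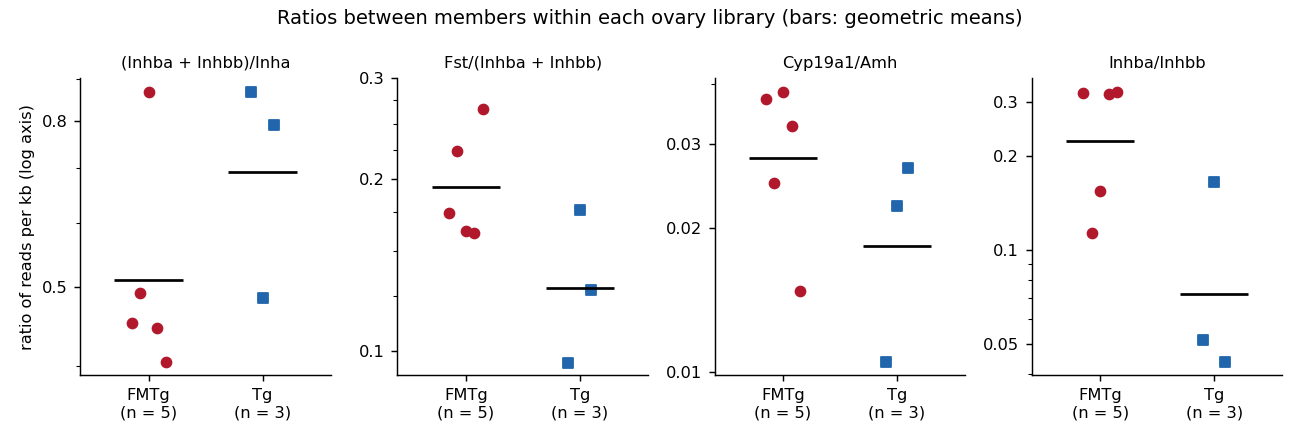
Ratios between members in each ovary library, on reads per kilobase and a log axis. Circles are 5 FMTg and squares 3 Tg libraries, with bars at the geometric means; in each panel at least 1 library lies within the range of the other genotype.

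The members varied together over the 8 ovaries. All 36 pairs had a positive Pearson r of the log2 values, with a median of 0.75 and a range of 0.33 to 0.96. By permutation, 14 pairs passed an adjusted p of 0.05 for Pearson's r and 13 for Spearman's rho, adjusted over 36. Amh and Inhbb had the highest r, 0.955 (permutation p = 5.95e-04, adjusted 0.0107) and a rho of 0.952 (permutation p = 0.00114, adjusted 0.0402), and Inha and Fst had r = 0.937 (permutation p = 3.97e-04, adjusted 0.0107) and rho = 0.905 (permutation p = 0.00456, adjusted 0.0426).

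For each pair, the 2 libraries farthest from the median of its first gene were then left out, so they can differ between pairs. Of 36 pairs, 35 stayed positive with a median r of 0.64, and 2 pairs passed. These were Inha with Inhba (r = 0.980) and Fst with Fshr (r = 0.963), each with a permutation p of 0.00139, the smallest that 6 libraries allow, and an adjusted permutation p of 0.0250. The lowest r was then -0.45, for Inhba and Cyp19a1. As deviations from the genotype means, all 36 pairs were positive with a median r of 0.77, and 0 passed. The smallest permutation p of these deviations was 0.00417, for Amh and Inhbb, with an adjusted permutation p of 0.0583.

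Members, and genes with only a predicted-model or clone name, were left out of the search for like genes. For Amh, the 5 remaining genes most like it over the 8 ovaries were Ankle2 (r = 0.99), which acts in nuclear envelope reassembly, Lancl1, Pik3r4, a regulatory subunit of the lipid kinase Vps34, Tmx4 and Amz2, with r from 0.97 to 0.98. For Inha they were Zp1 (0.99), a protein of the egg coat made by oocytes, Htra1, a secreted protease, Elobl, Prkar2b, a regulatory subunit of protein kinase A, and Fscn1, an actin bundler, with r from 0.98 to 0.99. For Cyp19a1 they were Mos (0.98), the meiotic kinase of oocytes, then Wdr19, Tcaf1, Parp11 and Synpo, with r from 0.95 to 0.96. The median r over all genes tested was 0.06 for Amh, -0.01 for Inha and 0.08 for Cyp19a1. An r above 0.9 was reached by 104, 179 and 74 of 16486 genes, in that order, so the names are the top of many.

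Over the 8 ovaries, Inha correlated with the summed level of 13 oocyte genes with r = 0.945 (permutation p = 1.24e-04, adjusted over 5 lists 6.2e-04) and rho = 0.929 (permutation p = 0.00223, adjusted 0.0112), and r = 0.939 without the 2 farthest libraries. The oocyte sum was 4126, 2255, 1108, 2017 and 2966 normalised reads in FMTg ovaries and 539, 2513 and 1646 in Tg ovaries, with FMTg replicate 1 highest and Tg replicate 1 lowest. Inha correlated inversely with the acinar sum, with r = -0.779 (permutation p = 0.0250, adjusted 0.0626) and rho = -0.857 (permutation p = 0.0107, adjusted 0.0268), and r = -0.604 without the 2 farthest libraries. For the luteal, stroma and adipocyte sums r was -0.212, 0.190 and 0.611, with adjusted permutation p of r from 0.186 to 0.644. The 5 lists were chosen for this comparison after the values were seen, and the part of oocyte number, or of pancreatic tissue in the sample, in the level of the members was not tested.

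Of the lists that mark other cell types, oocyte genes had higher FMTg means for 12 of 13 members (median log2 change 0.69). The adipocyte list had higher FMTg means for 5 of 5 (median 2.72). Its sums were 4424, 5297, 2027, 26509 and 31195 normalised reads in FMTg ovaries, replicates 1 to 5, and 1022 to 1864 in Tg ovaries. FMTg replicates 4 and 5 thus stood far above the other FMTg ovaries. Luteal genes had higher FMTg means for 0 of 8 (median -0.84), with sums of 24436 to 30806 in FMTg ovaries and 34702 to 60925 in Tg ovaries, which do not overlap. How often sums of other gene sets separate was not counted. Proliferation genes had higher FMTg means for 6 of 6 (median 0.69). Of the acinar list 17 of 18 genes are in the table and 0 of the 15 tested had a higher FMTg mean (median -3.63), with sums of 129 to 608207 in FMTg ovaries and 12744 to 3527690 in Tg ovaries. With limma 0 genes of these 5 lists were called, and 1, 5, 7, 2 and 0 had an unadjusted p below 0.05, in the order oocyte, adipocyte, luteal, proliferation and acinar. With voom 0 were called and 0, 3, 7, 2 and 0 had such a p. Among all 16486 genes tested, 1049 had such a p with limma and 931 with voom, which is the background for the lists below too. The other lists, for theca, stroma, smooth muscle, surface epithelium, oviduct, endothelium and macrophages, had 0 calls by either tool, with higher FMTg means for 2 of 4, 1 of 4, 2 of 4, 3 of 4, 2 of 2, 3 of 3 and 2 of 4 genes and medians of 0.10, -0.25, -0.09, 0.28, 0.77, 0.48 and 0.13. These lists describe the same libraries as the 9 genes, and their part in the differences was not tested.

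Of 27 genes of activin, inhibin and AMH signalling, 0 were called by limma or voom, 19 had higher FMTg means, the median change was 0.07 and 2 had an unadjusted p below 0.05 by each tool. Acvr1c, the type I receptor ALK7, had 223, 192, 115, 195 and 649.5 normalised reads in FMTg ovaries, against 84.1, 80.0 and 71.9 in Tg ovaries, without overlap (log2 difference 1.48 ± 0.46, adjusted p = 0.548). Acvr1, the type I receptor ALK2, had 347 to 412 in FMTg ovaries and 436 to 524 in Tg ovaries, also without overlap (-0.38 ± 0.13, adjusted p = 0.640). Smad7, an inhibitory Smad, differed by 0.29 ± 0.16 and Gdf9, an oocyte growth factor, by 0.74 ± 0.49 (adjusted p = 0.828 and 0.846).

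Of 19 genes of FSH signalling and its targets, 3 of which (Lhcgr, Star and Cyp11a1) are also in the luteal list, 0 were called by either tool, 8 had higher FMTg means, the median was -0.04 and 4 had an unadjusted p below 0.05 by each tool. These 4 all had lower FMTg means. Cyp11a1, the side-chain cleavage enzyme that makes pregnenolone, had 2421 to 8484 normalised reads in FMTg ovaries and 11228 to 14890.4 in Tg ovaries (-1.63 ± 0.40, adjusted p = 0.411). Sgk1, a kinase induced by FSH, differed by -1.04 ± 0.38, Lhcgr, the receptor of luteinising hormone, by -0.68 ± 0.28, and Star, which carries cholesterol into mitochondria, by -0.91 ± 0.40, with adjusted p from 0.675 to 0.780.

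Of 16 other granulosa genes, some of them (such as Hsd17b1 and Ccnd2) also in the FSH list, 0 were called by either tool, 13 had higher FMTg means, the median was 0.29 and 1 had an unadjusted p below 0.05 by each tool. That was Kitl, the ligand by which granulosa cells signal to the oocyte, with 1694, 1675, 1191, 1669.9 and 1928 normalised reads in FMTg ovaries and 757, 1333 and 1004 in Tg ovaries. Only FMTg replicate 3 lay within the Tg range of Kitl (0.68 ± 0.21, adjusted p = 0.539). Hsd17b1, which makes estradiol from estrone, differed by 1.06 ± 0.56, Serpine2, a protease inhibitor, by 0.70 ± 0.42 and Ccnd2, cyclin D2, by 0.38 ± 0.20 (adjusted p from 0.826 to 0.843).

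Of 12 genes of the ovulatory response, 0 were called by either tool, 3 had higher FMTg means, the median was -0.44 and 3 had an unadjusted p below 0.05 by each tool. Their summed reads were 3488 to 4849 in FMTg ovaries and 6279 to 7839 in Tg ovaries, which do not overlap. Runx2, a transcription factor, had 90.6, 164, 413, 38.6 and 49.0 normalised reads in FMTg ovaries, against 909, 509 and 433 in Tg ovaries (-2.41 ± 0.68, adjusted p = 0.474). Cited4, a transcriptional cofactor, differed by -0.71 ± 0.19, Pgr, the progesterone receptor, by -0.84 ± 0.28 and Adamts1, a matrix protease, by -0.41 ± 0.23 (adjusted p from 0.457 to 0.828). Of 5 tested genes of testis-type supporting cells, which Foxl2 represses, 0 were called and 0 had an unadjusted p below 0.05 by either tool, and 3 had higher FMTg means (median 0.10). Sox9, a transcription factor of testis development, had 144, 229, 245, 238 and 224 normalised reads in FMTg ovaries and 507, 155 and 209 in Tg ovaries, and Sox8, Cldn11 and Gata1 differed by 0.10 to 0.33 on the log2 scale.

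Outside the ovary the 9 genes were much lower, Nr5a2 excepted. In limma's contrast of the ovary with the mean of the other 4 tissues, 9 of 9 were called higher in the FMTg ovary, where 25.2% of 17279 genes were, and 9 of 9 in the Tg ovary, where 30.6% of 17294 genes were. Cyp19a1 in both genotypes, and Fshr and Foxl2 in FMTg mice, passed the filter on low values only through the ovary, so that they had to differ and their calls are a description. The other members, 6 in FMTg and 8 in Tg mice, passed it in another tissue too. These contrasts had no term for the mouse, although some mice gave several tissues. In FMTg mice the other tissues included the 9 libraries with high Y-linked reads, and the part of sex was not tested. Inha had the largest contrast, 6.66 ± 0.65 on the log2 scale in FMTg and 5.40 ± 0.80 in Tg mice (adjusted p = 2.14e-08 and 1.56e-04). Foxl2 had 5.76 ± 0.49 in FMTg and 5.04 ± 0.75 in Tg mice (adjusted p = 1.57e-04 in Tg). The smallest contrast was that of Nr5a2 in FMTg mice, 3.06 ± 0.35 (2.71e-07), and that of Fst in Tg mice, 2.51 ± 0.33 (6.74e-05). Foxl2 had at least 133 normalised reads in every ovary library, the lowest being FMTg replicate 3.

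**Figure D4:**
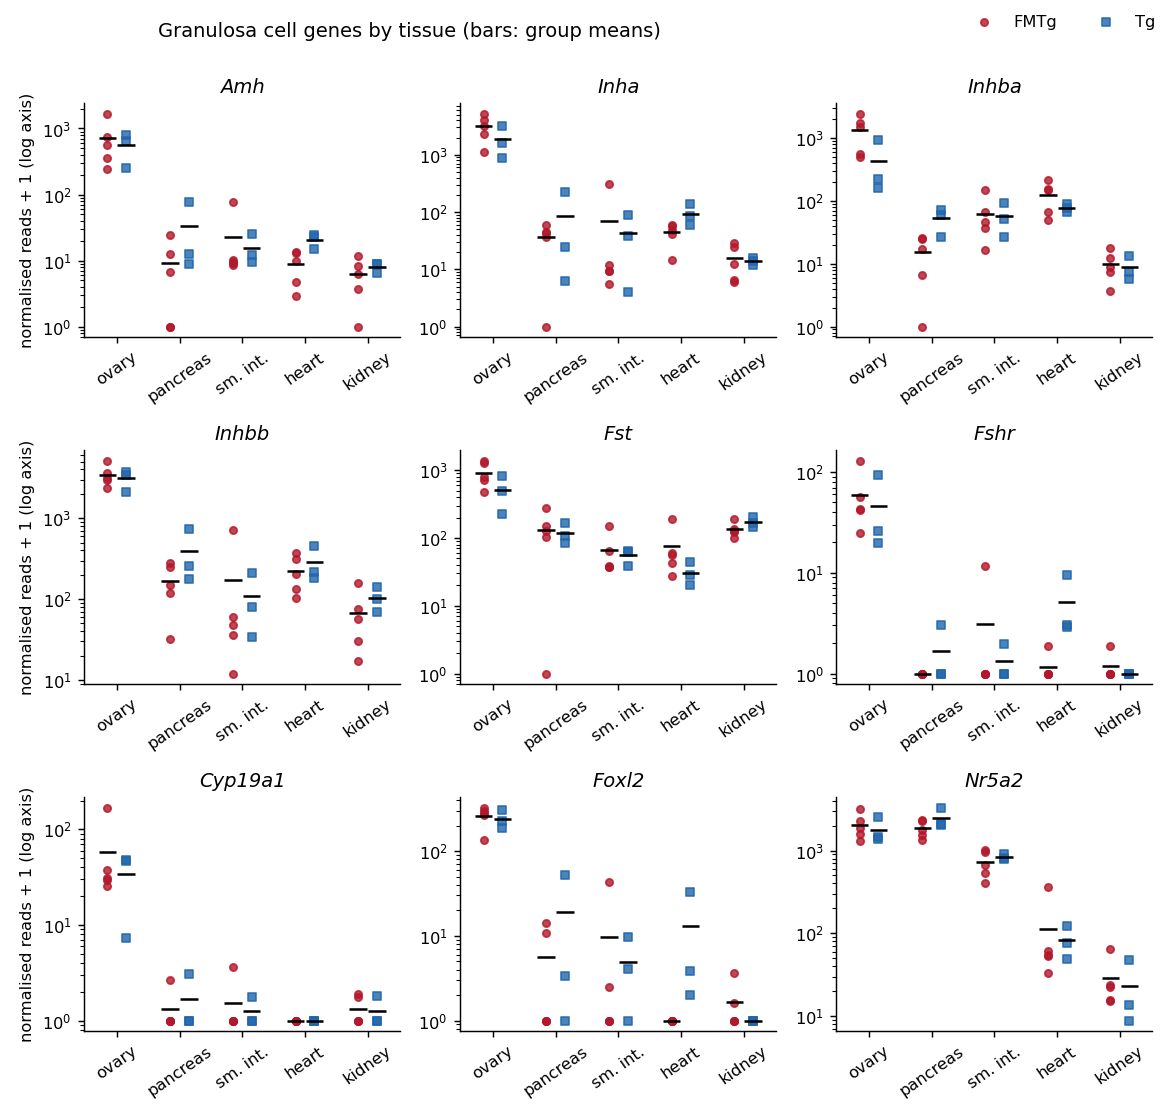
Normalised reads plus 1 of each gene in all 40 libraries by tissue, on a log axis. Circles are FMTg (n = 5 per tissue), squares Tg (n = 3) and bars group means; for 8 genes every ovary library lies above every library of the next tissue of its genotype, and for Nr5a2 ovary and pancreas overlap.

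For 8 of the 9 genes, in both genotypes, the lowest ovary library lay above the highest library of the next tissue in order. Nr5a2 was the exception, with 2040.4 ± 739.1 normalised reads in the FMTg ovary and 1857 ± 441 in the FMTg pancreas (SD, n = 5 each), which overlap. In Tg mice it had 1790.5 ± 662.7 in the ovary and 2451 ± 701 in the pancreas (SD, n = 3 each), again overlapping. Small intestine followed with 719 ± 269 in FMTg and 827 ± 61 in Tg mice, below every pancreas library of its genotype, and heart and kidney had means of 27.5 to 112 in FMTg and 22.3 to 82.3 in Tg mice.

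Among the other members, the order below the ovary differed. Fst was next in the kidney, with 135 ± 33 normalised reads in FMTg and 171 ± 28 in Tg mice, and the kidney overlapped the pancreas in both genotypes. Inhba was next in the heart, with 126 ± 68 in FMTg and 77.5 ± 11.7 in Tg mice, overlapping the small intestine. Inhbb was next in the heart of FMTg mice, 224 ± 114, and in the pancreas of Tg mice, 389 ± 297, where heart and pancreas overlap. Fshr reached at most 10.6 normalised reads and Cyp19a1 at most 2.65 outside the ovary. Cyp19a1 had 0 reads in all 8 hearts, which allows up to 1.89 to 2.61 normalised reads in the FMTg and 2.81 to 3.03 in the Tg libraries (3 reads each, counting error only).

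In the other 4 tissues no tested member was called between genotypes. Of 7 tested in the pancreas 0 were called, where 0.446% of all genes were, of 6 in the kidney 0 (0.616%), of 6 in the heart 0 (0.019%) and of 7 in the small intestine 0 (0%). At an unadjusted p below 0.05 limma had 0, 0, 1 and 0 members in that order, and voom, which called 0 in each tissue, had 1, 0, 2 and 0. Adjusted p from limma ran from 0.609 to 0.926 in the pancreas, 0.564 to 0.969 in the kidney, 0.760 to 0.989 in the heart and 0.990 to 0.998 in the small intestine. Members not tested had a mean close to the lowest value of the table.

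In the pancreas all 7 tested members had lower FMTg means of the log2 values, although Fst averaged 129.6 normalised reads in FMTg and 116.9 in Tg pancreas. Inhba had 23.6, 25.1, 16.3, 0 and 5.73 normalised reads in FMTg pancreas, against 59.5, 25.8 and 70.1 in Tg pancreas. FMTg replicate 4, with 0 reads of Inhba, was the shallowest library at 7.16 M reads. Its 0 allows up to 18.5 normalised reads (3 reads, counting error only). The 5.73 of FMTg replicate 5 is 2 reads. The groups did not overlap, but FMTg replicate 2 and Tg replicate 2 were nearly equal (log2 difference -1.87 ± 0.85, adjusted p = 0.609, exact permutation p = 0.0893). The share of all genes whose groups do not overlap was counted for the ovary alone, not for the pancreas or heart. In the heart, Inha had 55.4, 41.0, 58.2, 47.7 and 13.3 in FMTg and 135, 84.0 and 58.6 in Tg hearts, where the highest FMTg and the lowest Tg heart were nearly equal (-1.05 ± 0.46, adjusted p = 0.760, exact permutation p = 0.0357). Amh in the heart had 8.71, 12.4, 12.2, 3.79 and 1.89 in FMTg and 21.6, 23.3 and 14.2 in Tg (-1.04 ± 0.44, adjusted p = 0.760, exact permutation p = 0.0536). FMTg replicates 4 and 5 of both tissues and FMTg replicate 1 of the pancreas carried Y-linked reads and no Tg library did at that level, and the part of sex in these differences was not tested.

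Foxl2 and Fshr, which few cells outside the ovary are known to express, were read in several libraries of other tissues. In the heart Foxl2 had 0 reads in all 5 FMTg libraries, which allows up to 1.89 to 2.61 normalised reads, and 31.9, 1.01 and 2.84 in Tg libraries. Fshr had 0, 0, 0.869, 0 and 0 in FMTg hearts and 8.44, 2.02 and 1.89 in Tg hearts, so that Tg replicate 1 was the highest for both genes. Neither passed the filter on low values in the heart. In the small intestine Foxl2 had 1.49, 0, 42.4, 0 and 0 in FMTg and 3.08, 0 and 8.57 in Tg libraries, with FMTg replicate 3 far above the rest.

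The libraries highest for Foxl2 outside the ovary held other members as well. The small intestine of FMTg replicate 3 came from the mouse that gave ovary FMTg replicate 3, and its normalised reads were 31.4% of that ovary's for Amh, 28.3% for Inha, 30.02% for Inhbb, 31.3% for Fst, 31.8% for Foxl2 and 33.1% for the oocyte sum. Its Fshr was at 45.0% and its Cyp19a1 at 10.9%, from few reads. The pancreas of Tg replicate 1 came from the mouse of ovary Tg replicate 1 and held 29.8% of that ovary's Amh, 24.8% of its Inha, 34.6% of its Inhbb, 27.4% of its Foxl2 and 24.0% of its oocyte sum. Heart Tg replicate 1, from the same mouse, held 8.46% of its Amh, 15.3% of its Inha and 17.0% of its Foxl2. In the FMTg mice with ovary replicates 1 and 2 the other tissues held at most 2.24% of the ovary's Amh and 1.85% of its Inha.

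Without these libraries the levels outside the ovary were lower. FMTg small intestines other than replicate 3 had 4.60 to 11.0 normalised reads of Inha, against 312 in replicate 3, and Tg pancreas replicates 2 and 3 had 5.16 and 23.4, against 219.6 in replicate 1. The same Tg mouse had acinar genes at 25.1% of reads in its ovary and 44.9% in its pancreas. Whether tissue of 1 organ was present in the sample of another was not tested.

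**Figure D5:**
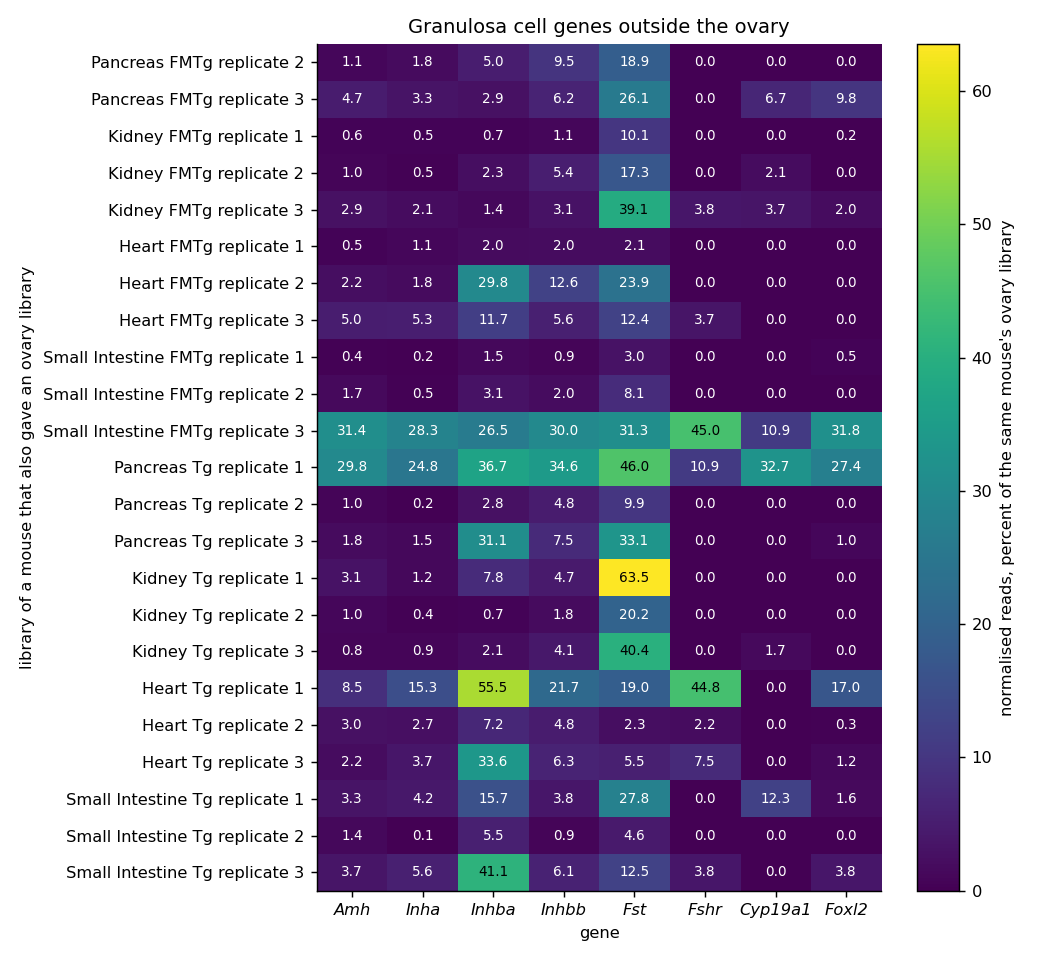
Normalised reads of 8 genes in each library outside the ovary, as a percentage of the ovary library of the same mouse, for the 23 libraries of mice that gave both; FMTg libraries are above Tg libraries. Small intestine FMTg replicate 3 and pancreas Tg replicate 1 hold 10.9% to 46.0% of their ovary's level for all 8 genes, whereas Foxl2 is at most 9.81% in the other libraries except heart Tg replicate 1.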

How the data were processed

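RNA of 5 tissues was sequenced, with 5 FMTg and 3 Tg libraries per tissue. Per the submitters' processing notes, STAR 2.6.0b and DESeq2 were used with GRCm38; the strand setting and filters are not given in the sources used here. The authors deposited log2 values from a variance stabilising transformation. Inverting it gave whole reads for 100% of 720960 values (within 0.01 of a read). Normalised reads are these divided by the size factor of the library. Levels per kilobase use exon lengths of GENCODE M21.

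The deposited log2 values of each tissue were fitted with limma 3.58.1 (R 4.3.3), with a variance trend, as FMTg minus Tg. Genes were tested where their mean over the tissue was at least 1 above the lowest value, 1.65. P-values were adjusted by Benjamini-Hochberg over all genes tested and called below 0.05. Single values were also tested by an exact permutation test, two-sided, over 56 divisions. Ovary was contrasted with the mean of the other tissues in the 15 Tg and, separately, the 25 FMTg libraries, for genes whose mean in at least 1 tissue passed that filter. Ratios had 1 normalised read added. Correlations used permutation tests. Scripts ran in Python 3.11.15 and were tested on simulated data.

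All 9 members are named, with up to 4 genes of each pathway list by smallest unadjusted p, and the 5 genes most like Amh, Inha and Cyp19a1 outside members and predicted-model or clone names. Members and lists were chosen with earlier results of these data known. Replicate numbers of FMTg and Tg come from different mice, and no label pairs the ovaries. Deviations of same-numbered libraries had r of -0.70, -0.10 and -0.58, and those of unlike number had r from -0.16 to 0.63. With 3 Tg libraries these values cannot decide whether libraries are paired. Nothing says how the mice relate, so p-values measure the spread between these libraries. The 95% intervals are from limma and reflect the spread between libraries; limits on 0 reads cover counting error only. The alternative without ovaries of over 1% acinar reads was chosen after seeing the data.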

Additional observations from a re-analysis of the deposited data

Results flagged for a closer look

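Of 42 groups of 5 FMTg libraries that were screened for a library far from the others, 15 were flagged, where chance flags about 1 in 20 groups of continuous values; that rate does not hold for groups that are mostly 0. All values here are deposited log2 values. In the ovary, Cyp19a1 was highest in FMTg replicate 1, at 7.429, and Foxl2 lowest in FMTg replicate 3, at 7.124.

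Small intestine FMTg replicate 3 was the highest of 5 for all 9 members and flagged for 5 of them: Amh at 6.359, Inha at 8.312, Fshr at 4.025, Cyp19a1 at 2.934 and Foxl2 at 5.599. Libraries of FMTg replicate 3 were also the highest for Fshr in the kidney (2.413) and heart (2.403), for Cyp19a1 in the pancreas (2.672), each of which is 1 read against 0 in the other 4 libraries, and for Nr5a2 in the kidney (6.137). Nr5a2 in the heart was highest in FMTg replicate 4, at 8.524.

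Inha was lowest in pancreas FMTg replicate 4, at 1.653, which is the value of 0 reads, and in heart FMTg replicate 5, at 4.25. Fst was lowest in pancreas FMTg replicate 5, also at 1.653.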

How the results depend on the processing

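No member was called in the ovary under any alternative, including voom, other filters, library weights, 1 model of all 40 libraries and a replicate block. The replicate block gave 0 calls over all genes and 515 at an unadjusted p below 0.05, against 1049 without it. Over all genes, library weights gave 17 calls and the model of 40 libraries 68. Differences of Inha, Inhba, Fst and Fshr kept their sign throughout. In the model of 40 libraries the difference was -0.0142 for Amh, -0.0395 for Inhbb and -0.0358 for Foxl2. For Foxl2 it was -0.0093 with the replicate block and also without FMTg replicates 4 and 5. These are the same estimate, because the block takes the difference only from replicate numbers that both genotypes have. The block also matches libraries of different mice. Leaving out 1 library gave ranges of -0.33 to 0.47 for Amh, -0.11 to 0.30 for Inhbb, -0.10 to 0.98 for Cyp19a1, -0.0852 to 0.294 for Foxl2 and -0.0025 to 0.46 for Nr5a2, the lowest without Tg replicate 1 except for Nr5a2, where it was without FMTg replicate 1; the cause was not tested. Without the 3 ovaries of over 1% acinar reads, Inhba differed by 2.00, Inha by 0.87, Fst by 0.74, Fshr by 0.28, Cyp19a1 by 0.20, Nr5a2 by 0.14, Inhbb by 0.10, Foxl2 by 0.09 and Amh by 0.08. Inhba differed by 1.10 with library weights and by 1.42 with the replicate block. Over 8 libraries 14 pairs of members passed, against 2 without the 2 libraries farthest for each pair, 1 of them among the 14. As deviations from the genotype means 0 passed. Calls of the 9 members as higher in the Tg ovary held with the mouse as a block, and the FMTg contrast was not fitted with such a block. Cyp19a1 and Fshr are limited by depth, with as few as 5 reads of Cyp19a1 in an ovary library.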
